A study of Mus musculus with 12 samples.

Results

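Macrophages that had already been polarized with interleukin-4 (IL-4) were exposed to lipopolysaccharide (LPS), and the messenger RNA of the cells was compared before and after. The cells were bone marrow-derived macrophages (BMDMs), which are grown from mouse bone marrow precursors, here for 6 days in medium with supernatant of L929 cells as a source of M-CSF. The mice were wild-type animals of 8 to 12 weeks, per the labels, and of C57BL/6 background, per the study's methods. The IL-4 group received IL-4 at 20 ng/ml for 24 h, and the IL-4+LPS group received the same IL-4 exposure followed by LPS at 100 ng/ml for 3 h, a dose taken from the labels, while the study's methods state it in nM. Each group held 3 samples, numbered 1 to 3, so the comparison used 6 of the 12 samples of the series. The remaining samples were untreated cells (control, n = 3) and cells exposed to LPS for 3 h without IL-4 (LPS, n = 3), and they enter below only to show where the response after IL-4 differed. A row of the expression tables, which is 1 gene or 1 of several loci with the same name, was used if its FPKM, a fragment count normalised to transcript length and sequencing depth, was at least 1 in any of the 6 samples. This held for 10770 of 23847 rows. At that threshold, Ska3 reached 1.0009 FPKM and was kept, and Ada reached 0.9995 FPKM and was left out.

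LPS is a cell wall component of Gram-negative bacteria. It is bound by CD14 and MD-2 and recognised by Toll-like receptor 4, which signals through the adaptor MyD88 to NF-kB and MAP kinases and through the adaptor TRIF to IRF3 and type I interferon. Macrophages respond within hours with chemokines, cytokines, interferon-stimulated genes and inhibitors of the same pathway. IL-4 acts through the transcription factor STAT6 and gives an alternatively polarized state, marked by products such as RELM-alpha (Retnla), Ym1 (Chi3l3) and arginase 1 (Arg1).

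The 3 IL-4 and 3 IL-4+LPS samples expressed all 7 macrophage markers that were checked, with summed levels of 7571 to 7785 FPKM in IL-4 and 6567 to 6954 FPKM in IL-4+LPS. Neutrophil markers were also present, at summed levels of 232 to 439 FPKM in IL-4 and 459 to 927 FPKM in IL-4+LPS, of which S100a9 and S100a8 took the most. Their part in the results was not tested. The markers of T cells, B cells, dendritic cells, mast cells or basophils, fibroblasts, erythroid cells, NK cells and endothelium summed to at most 4.36 FPKM in any sample, and Cd3d, Cd3e, Fcer1a, Mcpt4 and Dcn were at 0 in all 6. Relative depth, read from the steps of low FPKM values, ranged from 1.00 to 1.99 over the 6 samples, and replicate 1 was the shallowest in both groups. Replicate 1 also stood apart from replicates 2 and 3 within each group, and IL-4+LPS replicate 1 lay farthest out, with a score of 38.22 on the first principal component of the deviations from the group means against -20.7 and -17.52 for the other two. The study describes separate animals from more than 1 independent experiment, and the labels do not tie samples to experiments, so the part of the experiment in these differences was not tested. In bulk RNA, fewer cells of a type and less RNA per cell cannot be told apart.

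LPS changed the expression of most genes of IL-4-pretreated BMDMs. Of the 10770 rows, 1654 rose (15.4%), 6333 fell (58.8%) and 2783 did not pass the test, which was limma on log2(FPKM + 1) with a Benjamini-Hochberg adjusted p under 0.05. The increases were fewer and larger. Among them, 844 rows rose at least 2-fold (7.84%) and 1692 fell at least 2-fold (15.7%). At 4-fold or more there were 408 rises and 241 falls, and at 16-fold or more 117 and 10. All fold changes are on the log2(FPKM + 1) scale unless stated otherwise, which makes the fold change of weakly expressed genes too small.

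The balance of rises and falls depended on the scaling between samples. Rows that rose at least 2-fold took 2.61 to 2.82% of all FPKM in the IL-4 samples. In IL-4+LPS they took 17.4% in replicate 1, 22.5% in replicate 2 and 22.2% in replicate 3. Rows that fell at least 2-fold took 8.21 to 8.36% in IL-4 and 3.18, 2.22 and 2.35% in IL-4+LPS. The total FPKM of the 6 samples was 459699 to 495025, and the median log2 fold change over all rows was -0.42. As an alternative, each sample was divided by the median ratio of its FPKM to the geometric mean of the 12 samples. This ratio was taken over the 8362 rows with at least 1 FPKM in every sample. After this median scaling, the median over all rows was -0.08, a shift of 0.34, and 2836 rows rose (26.3%) and 3664 fell (34.0%). The increases were then 43.6% of all calls, against 20.7% without scaling, and 89 of the rows that fell were called as rises. Of the rows that changed at least 2-fold, 844 of the 844 that rose and 1668 of the 1692 that fell kept their call.

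**Figure D1:**
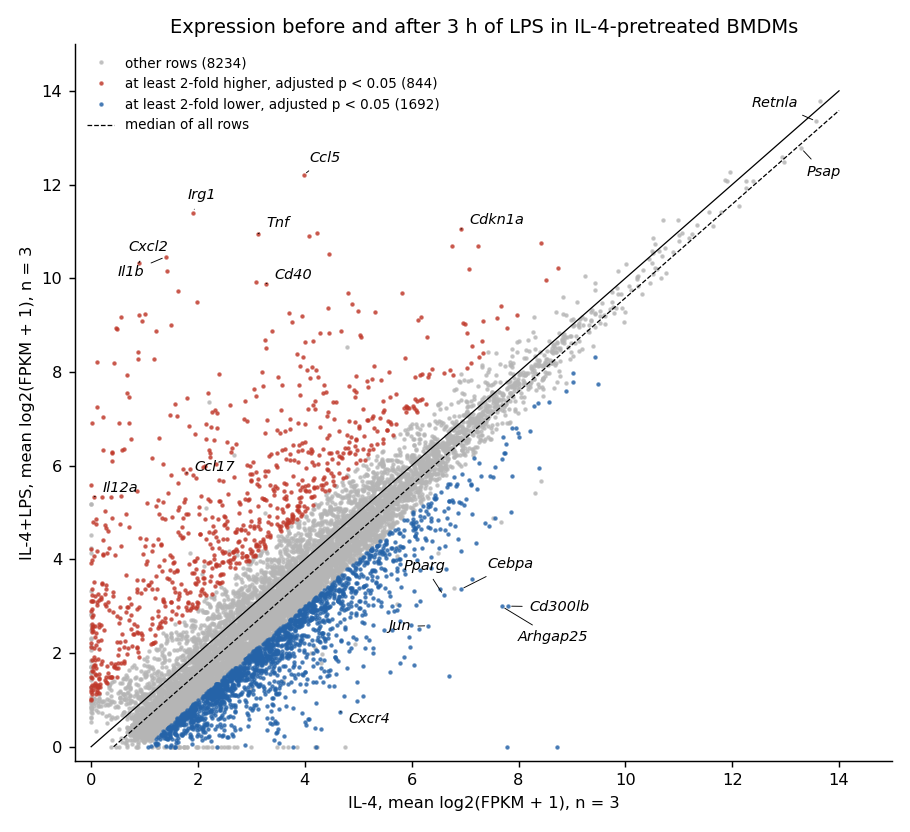
Mean log2(FPKM + 1) of each of the 10770 rows in IL-4 (horizontal axis, n = 3) and IL-4+LPS (vertical axis, n = 3). Red points are the 844 rows that rose at least 2-fold and blue points the 1692 rows that fell at least 2-fold at an adjusted p under 0.05, the solid line marks equal levels and the dashed line the median of all rows (-0.42). The red points spread up to 9.50 log2 units above the solid line, and most of the cloud lies below it.

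In the plot of levels before and after LPS, the abundant transcripts Retnla (-0.22) and Psap (-0.51) lie close to the line. The median difference between same-numbered samples over the rows that rose at least 2-fold was 1.67 log2 units in replicate 1, 2.07 in replicate 2 and 2.01 in replicate 3, and over those that fell it was -1.16, -1.44 and -1.43. Replicate 1 thus had the smallest differences in both directions. These rows were chosen by the same contrast, so the values describe the replicates and test nothing.

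Chemokines were among the genes with the largest increases. These are secreted proteins that recruit leukocytes. Of 20 chemokine genes tested, 18 rose, against 15.4% of all rows, and the other 2, Ccl6 and Cxcl14, did not pass. The median log2 fold change of the list was 4.0, and 18 rose after median scaling as well, beside 26.3% of all rows. Cxcl2, which attracts neutrophils through CXCR2, was at 1.52, 0.532 and 0.651 FPKM in the 3 IL-4 samples and at 716, 1686 and 1736 FPKM in the 3 IL-4+LPS samples. The groups did not overlap, and replicate 1 was the lowest after LPS. Its log2 fold change was 9.43 (standard error 0.31, adjusted p = 3.15e-09). Its relatives Cxcl3 and Cxcl1 rose by 8.63 (SE 0.41) and 8.47 (SE 0.35). Cxcl10, an interferon-inducible ligand of CXCR3, rose from 4.30, 1.20 and 0.639 to 1245, 1157 and 1027 FPKM (log2 fold change 8.74, SE 0.35, adjusted p = 1.17e-08), and here replicate 1 was not lower than the others.

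Ccl5, which attracts T cells and monocytes, gained the most FPKM of any gene. It went from 43.0, 10.1 and 6.98 FPKM in IL-4 to 3373, 5856 and 5290.3 FPKM in IL-4+LPS, a log2 fold change of 8.23 (SE 0.59, adjusted p = 6.42e-07). Ccl4 and Ccl3, the macrophage inflammatory proteins, rose by 6.73 (SE 0.52) and 6.07 (SE 0.44), and Ccl4 was at 876, 3232 and 2772 FPKM in the IL-4+LPS samples. Replicate 1 lay far below replicates 2 and 3. The monocyte attractants Ccl2, Ccl7, Ccl8 and Ccl12 rose by 3.95, 2.97, 1.64 and 5.74. Cxcl5 was listed at 0 in the 3 IL-4 samples and at 0.809, 2.67 and 2.29 FPKM in IL-4+LPS (adjusted p = 1.49e-04).

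Regulatory DNA of strongly induced genes is shown for 6 examples, because these promoters hold the motifs that the LPS pathways are known to use. The sequences are the 250 bases before the transcription start from RefSeq (build GRCm38.p6), written on the strand of the gene. Capitals mark matches to the NF-kB motif GGNNTTTCC (kB) and to the interferon response motif GAAANNGAA (ISRE), where N is any base and both strands were searched. The windows lie at chr5:90903649-90903898 on the plus strand (Cxcl2), chr14:103046762-103047011 plus (Irg1), chr12:55492648-55492897 minus (Nfkbia), chr5:92348890-92349139 minus (Cxcl10), chr19:34640639-34640888 plus (Ifit1) and chr4:156200819-156201068 minus (Isg15). The first 3 have 2, 1 and 2 kB matches, and Nfkbia also has 1 ISRE match. Cxcl10 has 1 match of each kind, Ifit1 has 3 ISRE matches and Isg15 has 3 ISRE matches and 1 kB match, some of which overlap so that their capitals run together.
Cxcl2: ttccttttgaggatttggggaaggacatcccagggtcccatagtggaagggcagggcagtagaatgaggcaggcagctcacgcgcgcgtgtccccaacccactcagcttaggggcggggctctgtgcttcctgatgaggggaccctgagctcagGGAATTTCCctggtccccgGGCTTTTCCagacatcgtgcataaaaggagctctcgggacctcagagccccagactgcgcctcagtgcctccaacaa
Irg1: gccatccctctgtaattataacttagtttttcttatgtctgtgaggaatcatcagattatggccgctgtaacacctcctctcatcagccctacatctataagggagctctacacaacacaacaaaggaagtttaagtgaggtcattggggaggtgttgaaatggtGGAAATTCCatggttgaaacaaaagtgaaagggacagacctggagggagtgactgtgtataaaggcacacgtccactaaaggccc
Nfkbia: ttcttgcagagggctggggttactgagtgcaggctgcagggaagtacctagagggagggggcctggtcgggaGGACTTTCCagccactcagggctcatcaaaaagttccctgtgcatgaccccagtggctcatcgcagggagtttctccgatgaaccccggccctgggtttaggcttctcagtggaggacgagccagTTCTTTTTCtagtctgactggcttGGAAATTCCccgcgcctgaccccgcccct
Cxcl10: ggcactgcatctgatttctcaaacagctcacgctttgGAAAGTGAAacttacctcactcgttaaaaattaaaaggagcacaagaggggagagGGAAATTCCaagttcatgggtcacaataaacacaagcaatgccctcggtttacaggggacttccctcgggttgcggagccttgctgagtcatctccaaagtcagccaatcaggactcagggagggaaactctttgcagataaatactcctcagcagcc
Ifit1: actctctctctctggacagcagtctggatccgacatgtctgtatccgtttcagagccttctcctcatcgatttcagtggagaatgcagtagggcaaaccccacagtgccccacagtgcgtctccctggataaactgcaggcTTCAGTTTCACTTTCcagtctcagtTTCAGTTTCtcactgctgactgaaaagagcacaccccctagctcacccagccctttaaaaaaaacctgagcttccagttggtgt
Isg15: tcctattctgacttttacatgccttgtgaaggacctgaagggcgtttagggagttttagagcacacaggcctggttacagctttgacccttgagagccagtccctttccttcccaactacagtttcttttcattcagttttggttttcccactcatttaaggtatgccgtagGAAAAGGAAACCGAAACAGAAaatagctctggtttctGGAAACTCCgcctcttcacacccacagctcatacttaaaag

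The same letters were counted in all promoter windows of RefSeq, each of 300 bases from 250 before to 50 after the start. The rows that rose at least 4-fold matched 313 genes with 400 windows, and those that fell at least 4-fold 183 genes with 263 windows. The kB motif was in 14.5% of the windows of the induced genes, in 3.42% of those of the repressed genes and in 6.25% of the windows of all genes tested. The ISRE motif was in 20.5, 5.32 and 7.43% in the same order. In all 32851 windows of the table the shares were 5.82 and 8.56%. The AP-1 motif TGANTCA was in 13.2% of the induced, 8.37% of the repressed and 5.27% of all windows tested, the STAT motif TTCNNNGAA (GAS) in 11, 6.46 and 6.88%, and the cyclic AMP response motif TGACGTCA (CRE) in 1.25, 1.90 and 3.10%. A match is a description of the letters and not a bound site, and windows of 1 gene can overlap.

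Among the cytokines and growth factors, 21 of 27 genes tested rose and 1 fell, where 15.4% of all rows rose and 58.8% fell. The median log2 fold change was 2.90. After median scaling 23 rose and 1 fell, beside 26.3% and 34.0% of all rows. Il1b, which encodes the pyrogenic cytokine IL-1 beta, went from 2.91, 2.08 and 0.510 FPKM in IL-4 to 478, 2317 and 2499.6 FPKM in IL-4+LPS (log2 fold change 9.06, SE 0.59, adjusted p = 2.97e-07). IL-4+LPS replicate 1 was far below replicates 2 and 3, and all 3 lay far above the IL-4 samples. Il1a showed the same order, with 30.1, 263 and 279 FPKM after LPS. Tnf, the early cytokine of the NF-kB response, went from 7.28, 8.60 and 7.36 to 1393, 2365 and 2346 FPKM, a log2 fold change of 7.83 (SE 0.21, adjusted p = 1.08e-09). Il6 was nearly silent in IL-4, at 0.190, 0 and 0.0540 FPKM, and reached 163, 355 and 447 FPKM after LPS (log2 fold change 8.10, SE 0.32, adjusted p = 1.02e-08).

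The subunits of the IL-12 family, which steer T cell responses, were induced together but to different levels. Il27, the p28 subunit of IL-27, was at 299.8, 915 and 811 FPKM in IL-4+LPS after 1.67, 0.838 and 0.665 FPKM in IL-4 (log2 fold change 8.24, SE 0.48). Il12a (p35) and Il12b (p40) rose by 5.28 and 3.96 to 24.3, 49.4 and 50.5 FPKM and 9.70, 15.4 and 21.8 FPKM. Il23a (p19) was listed at 0 in the IL-4 samples and at 1.38, 14.4 and 16.8 FPKM in IL-4+LPS (adjusted p = 8.12e-04), with replicate 1 far below the others. Ebi3, the other subunit of IL-27, rose by 1.23 from a higher start (14, 18.8 and 16.3 to 29.2, 48.1 and 43.6 FPKM). Of the other secreted factors, Edn1 (endothelin 1) rose by 7.27 (SE 0.67), Tnfsf9 by 6.21 (SE 0.39) and Il15 by 4.48 (SE 0.21). Vegfa, the vascular growth factor, was the only listed member that fell, by 1.42 on the log2 scale from a level of 4.18, 1.48 and 2.06 FPKM. Il10 did not pass, at 2.13, 3.35 and 3.64 FPKM in IL-4 and 1.60, 14.5 and 10.3 FPKM in IL-4+LPS (adjusted p = 0.266), and without IL-4+LPS replicate 1 its log2 fold change was 1.73 (adjusted p = 0.0381).

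Interferon-stimulated genes, which limit viral growth and are switched on by type I interferon, rose without exception among the 45 listed. All 45 of 45 rose, against 15.4% of all rows, and the median log2 fold change was 4.07. All 45 also rose after quantile normalization and after median scaling, where 26.3% of all rows rose. Ifnb1, the interferon that LPS induces through TRIF, was listed at 0 in the IL-4 samples and at 2.07, 10.6 and 10.6 FPKM in IL-4+LPS (adjusted p = 9.09e-05). The largest rise was that of Ifit1, an RNA-binding antiviral protein, from 1.75, 0.692 and 0.392 to 635, 593 and 559 FPKM (log2 fold change 8.32, SE 0.26, adjusted p = 2.76e-09). Gbp5, a guanylate-binding protein that acts on intracellular bacteria, rose by 8.14 (SE 0.17) to 468, 589.6 and 582 FPKM, and Rsad2 (viperin) by 8.11 (SE 0.31) to 1042, 759.6 and 768 FPKM. Isg15, a ubiquitin-like modifier, rose by 6.84 from 11.7, 6.00 and 5.87 FPKM, and Oasl1, Cmpk2 and Mx1 by 7.76, 7.51 and 7.53. In contrast to the cytokines, replicate 1 was not the lowest of the IL-4+LPS samples for Ifit1, Rsad2, Cmpk2 and Mx1. The smallest rise was that of Bst2 (tetherin), at 0.84, which started at 168, 156 and 149.6 FPKM. Ifit3, Oas1a, Oas1g and Gbp6 share 51.2 to 59.7% of their 50-base words with other genes, so their levels are uncertain.

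All 11 NF-kB subunits and IkB proteins rose, against 15.4% of all rows, with a median log2 fold change of 3.10. After median scaling all 11 rose as well, beside 26.3% of all rows. Nfkbiz, the nuclear IkB protein needed for secondary genes such as Il6, rose from 0.887, 0.510 and 0.516 to 133, 200.1 and 206 FPKM (log2 fold change 6.77, SE 0.17, adjusted p = 1.02e-09). Nfkbia, the main cytoplasmic inhibitor, rose from 18, 23.3 and 21.2 to 457, 803 and 771 FPKM (log2 fold change 4.92, SE 0.24). Among the subunits themselves, Nfkb2, Relb, Nfkb1 and Rel rose by 3.78, 3.10, 2.86 and 2.83, and Rela, the p65 subunit, by 1.30. The smallest rise was that of Nfkbid, at 0.83.

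The receptor side of the pathway moved in both directions. Of 23 LPS receptor components, adaptors and kinases, 10 rose and 6 fell (median 0.16), where 15.4% of all rows rose and 58.8% fell. After median scaling 15 rose and 4 fell, beside 26.3% and 34.0% of all rows. Tlr4 itself fell by 1.73 on the log2 scale (SE 0.26, adjusted p = 1.38e-04), from 33.3, 20.4 and 23.2 to 10.2, 5.64 and 5.54 FPKM, with no overlap of the groups. Its co-receptor Cd14 rose from 19.3, 13.5 and 14 to 198, 287 and 312 FPKM (log2 fold change 3.99, SE 0.17), and Ly96, which encodes MD-2, by 0.60 (SE 0.14). Of the adaptors, Myd88 rose by 1.76 (SE 0.12, adjusted p = 4.69e-07) and Ticam1, which encodes TRIF, fell by 0.84 (SE 0.09, adjusted p = 1.33e-05). Both kept their direction and call after median scaling. Of the IRAK kinases, Irak2 rose by 2.51, Irak4 fell by 0.81, and Irak1 fell by 0.62, a call that median scaling removed.

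Toll-like receptors other than Tlr4 also divided. Tlr2, which senses bacterial lipoproteins, rose by 3.96 (SE 0.15) from 4.04, 5.05 and 5.48 to 73.4, 95.2 and 102 FPKM, and its partners Tlr1 and Tlr6 by 1.58 and 1.48. Tlr3, a sensor of double-stranded RNA, rose by 1.29. Tlr13, which senses bacterial ribosomal RNA in the mouse, fell by 1.97 (SE 0.40), from 84.9, 66.4 and 67.9 to 34.1, 12.5 and 13 FPKM. Tlr7, Tlr8 and Tlr9 did not pass. Tlr7 had a log2 fold change of 0.34, which was 0.58 (adjusted p = 0.00653) without IL-4 replicate 1 and 0.75, past the threshold, after median scaling.

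Most genes that restrain the response rose with it. Of 23 negative feedback regulators tested, 17 rose and 3 fell, with a median of 2.18, where 15.4% of all rows rose and 58.8% fell. After median scaling 17 rose and 2 fell, beside 26.3% and 34.0% of all rows. Socs3, which inhibits JAK signalling downstream of IL-6 receptors, went from 0.863, 0.928 and 0.758 to 135, 497 and 443 FPKM (log2 fold change 7.39, SE 0.49, adjusted p = 3.51e-07). Tnfaip3 (A20), a ubiquitin-editing inhibitor of NF-kB, rose by 4.81 (SE 0.29) to 161, 331 and 317 FPKM. The RNases and RNA-binding proteins that shorten the life of cytokine mRNAs, Zc3h12a, Zc3h12c and Zfp36, rose by 2.54, 3.02 and 1.80. Of the MAP kinase phosphatases, Dusp2 and Dusp16 rose by 3.87 and 2.18, while Dusp4 and Dusp5 fell by 0.86 and 0.60. Median scaling removed the call of Dusp4. Dusp1 did not pass, at 15.6, 17.9 and 17.1 FPKM in IL-4 and 7.91, 26.5 and 20.2 FPKM in IL-4+LPS, where the groups overlapped.

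**Figure D2:**
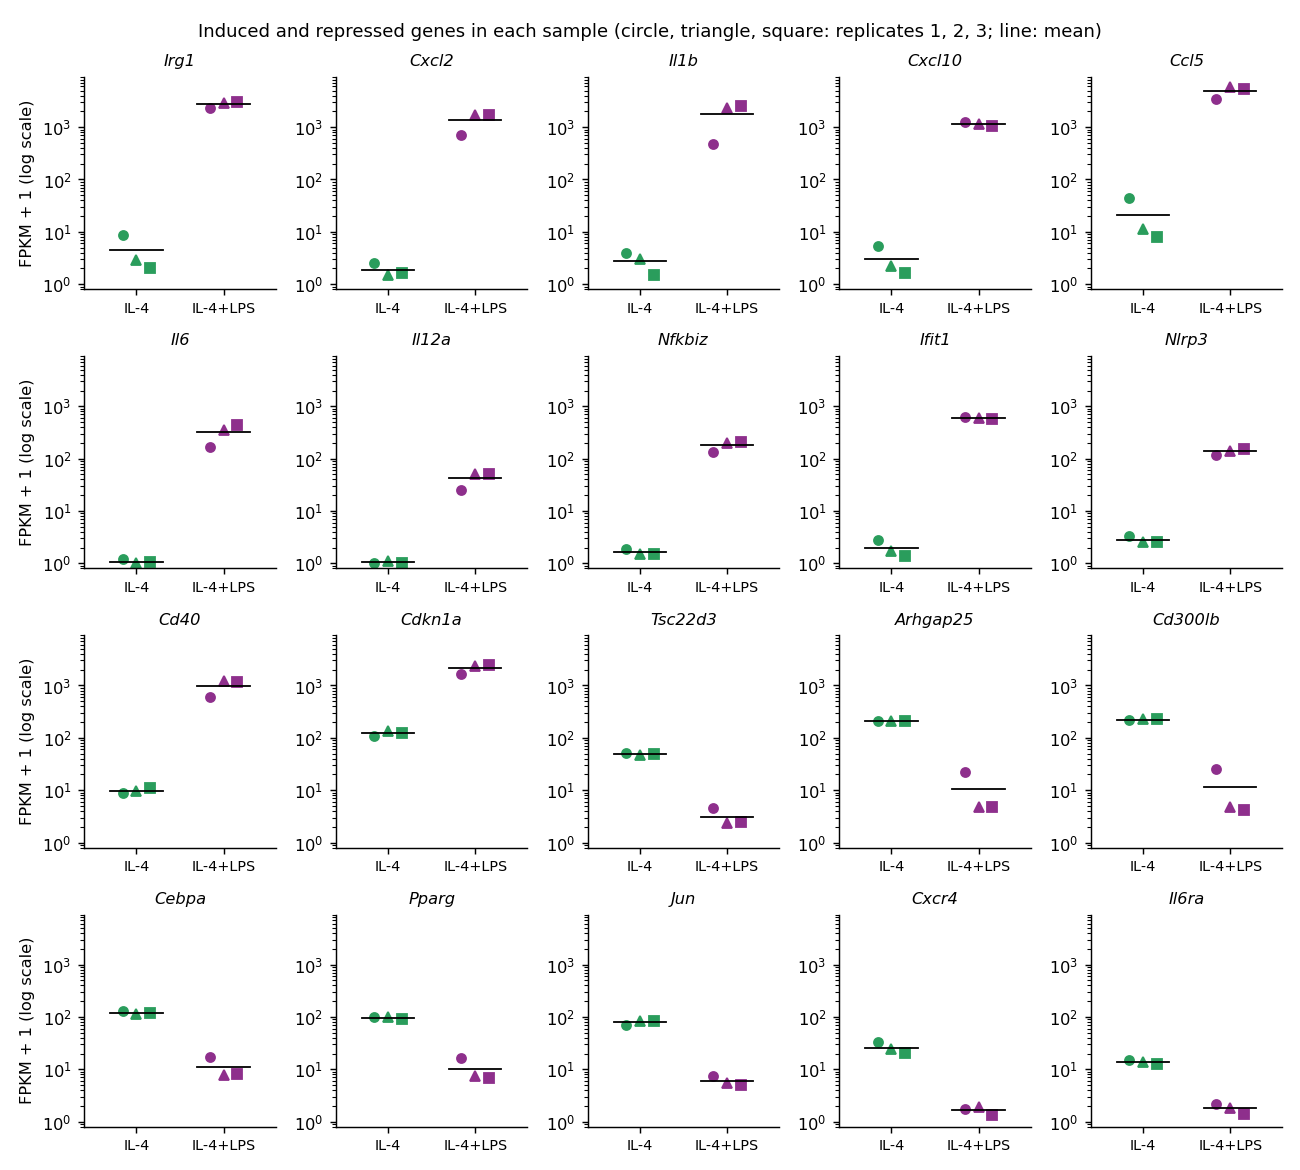
FPKM + 1 on a log scale for 20 genes in the 3 IL-4 (green) and 3 IL-4+LPS (purple) samples, with replicate 1 as a circle, replicate 2 as a triangle, replicate 3 as a square and the group mean as a line. The groups do not overlap for any of the 20 genes, which were picked among genes with large changes in these same samples. The lack of overlap therefore tests nothing. Replicate 1 lies apart from the others in IL-4+LPS for Il1b (478 against 2317 and 2499.6 FPKM), Arhgap25 and Cd300lb.

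The per-sample plot shows both patterns of replicate 1 in IL-4+LPS, a lower level for induced genes such as Il1b and Cxcl2 and a higher remaining level for several repressed genes. Of 10 inflammasome components, which activate caspase 1 and release IL-1 beta, 6 rose and 3 fell, against 15.4% and 58.8% of all rows. Nlrp3, the sensor that LPS primes, rose from 2.30, 1.54 and 1.53 to 117, 139 and 152 FPKM (log2 fold change 5.62, SE 0.12, adjusted p = 4.20e-10), and Mefv (pyrin) by 4.03 (SE 0.13). Casp4, the mouse caspase-11 that binds LPS in the cytosol, rose by 2.80 and Gsdmd, the pore-forming gasdermin, by 0.89. The adaptor Pycard (ASC) fell by 0.97 (SE 0.11, adjusted p = 1.57e-05), from 40.3, 41.8 and 41.2 to 19.1, 22.2 and 20.4 FPKM, and Nlrp1b fell by 1.54. Both also fell after median scaling.

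Genes of the IL-4 polarized state moved in both directions. Of 38 IL-4 polarization genes tested, 10 rose and 17 fell, where 15.4% of all rows rose and 58.8% fell. The median log2 fold change was -0.44, against -0.42 over all rows. After median scaling 11 rose and 12 fell, beside 26.3% and 34.0% of all rows, and the median was -0.03. Several transcription factors of the list fell. Irf4, which directs alternative polarization, went from 19.2, 20.6 and 19.9 to 3.61, 3.99 and 3.66 FPKM (fell by 2.14 on the log2 scale, SE 0.09, adjusted p = 1.55e-08), and Klf4 from 11.2, 12.6 and 13.5 to 1.39, 1.55 and 1.87 FPKM (fell by 2.37, SE 0.09, adjusted p = 1.10e-08). Pparg, the lipid-sensing nuclear receptor of alternatively polarized macrophages, fell by 3.36 (SE 0.27) to 15.4, 6.37 and 5.84 FPKM, and Egr2 by 3.16 (SE 0.49) to 23.4, 6.21 and 5.33 FPKM. For Pparg and Egr2 the remaining level was highest in replicate 1. Batf3 fell by 1.40. All 5 kept their call after median scaling.

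Several products of alternative polarization did not pass the test. Retnla, at 11617, 11878 and 13029 FPKM in the IL-4 samples, was at 9556, 11252 and 10633 FPKM after LPS (log2 fold change -0.22, SE 0.35, adjusted p = 0.584). Chi3l3 did not pass either, at 713, 942 and 866 FPKM before and 546, 704 and 715 FPKM after LPS, and neither did Fn1 (-0.12), Itgax (0.02), Fabp4 (0.33) or Mmp12 (-0.40). After median scaling Fn1 passed as a rise of 0.28. Without IL-4+LPS replicate 1 the value of Mmp12 was -0.54 (adjusted p = 0.0402). Arg1 fell by 0.81 (SE 0.26, adjusted p = 0.0154), from 49.6, 27.3 and 23.6 to 24.4, 15.2 and 15.1 FPKM, with replicate 1 highest in both groups and the groups overlapping. Its call was lost without IL-4+LPS replicate 2 (-0.70, adjusted p = 0.0569) or 3 (-0.69, adjusted p = 0.0585), after median scaling (-0.40) and with a pseudocount of 0.1 (adjusted p = 0.143), and without IL-4 replicate 1 it was -0.49 (adjusted p = 0.0483). The mannose receptor Mrc1, the ligand Pdcd1lg2 (PD-L2) and Tmem26 fell by 0.87, 0.99 and 0.84, also after median scaling.

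Other members of the list rose further under LPS. Of these, 3 were chemokines that are known to respond to IL-4. Ccl17 went from 1.35, 4.81 and 1.99 to 25.7, 86.7 and 79.7 FPKM (log2 fold change 4.06, SE 0.45, adjusted p = 1.49e-05), Ccl22 from 10.3, 5.99 and 4.07 to 78.8, 259.8 and 224 FPKM (4.50, SE 0.46) and Ccl24 from 12.5, 10.6 and 9.37 to 75.7, 201 and 195 FPKM (3.62, SE 0.36). All 3 were lowest in replicate 1 of IL-4+LPS. The arginine transporter Slc7a2 rose by 3.19, the cytokine inhibitor Cish by 2.65, transglutaminase Tgm2 by 2.64, the transcription factor Tfec by 2.58 and the VEGF receptor Flt1 by 1.27. Il4ra, the IL-4 receptor chain, rose by 0.87 (SE 0.32, adjusted p = 0.0294), from 15.7, 17.4 and 15.9 to 19.0, 40.3 and 37.9 FPKM, and its call was lost in 5 of the 12 fits without 1 sample, where its value was 0.69 to 0.92.

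**Figure D3:**
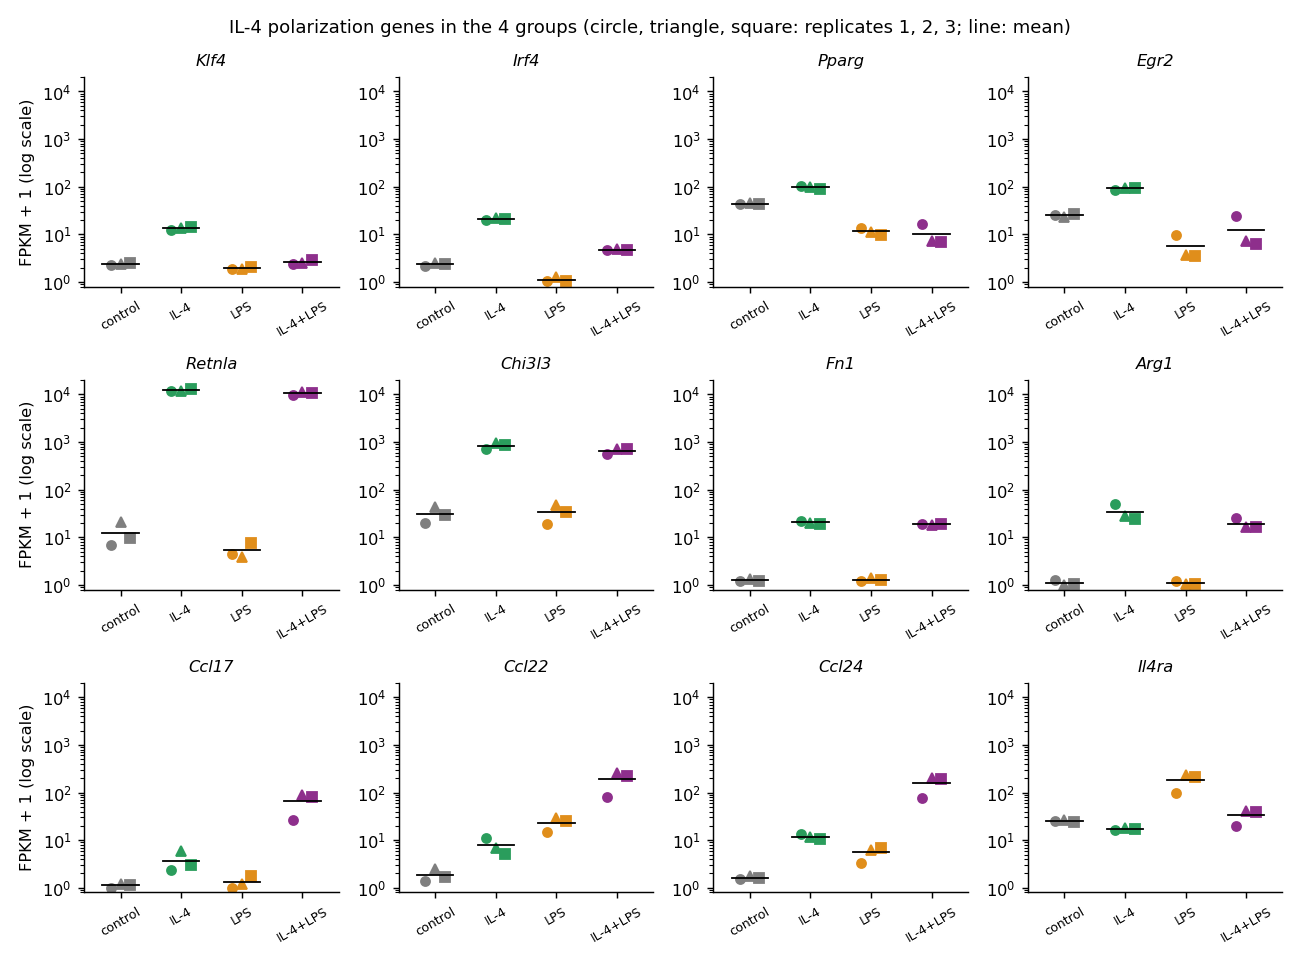
FPKM + 1 on a log scale for 12 IL-4 polarization genes in the control (grey), IL-4 (green), LPS (orange) and IL-4+LPS (purple) samples, 3 of each, with replicate 1 as a circle, 2 as a triangle, 3 as a square and the group mean as a line. Klf4, Irf4, Pparg and Egr2 fall from IL-4 to IL-4+LPS, Retnla, Chi3l3 and Fn1 did not pass (Fn1 passed as a rise after median scaling), and Ccl17, Ccl22 and Ccl24 are highest in IL-4+LPS.

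The panel of polarization genes places these levels beside the other groups. Retnla had a mean of 11.4 FPKM in control and 4.30 FPKM in LPS, against 10480.3 FPKM in IL-4+LPS. Fn1 was at 0.241 FPKM in control and 0.277 FPKM in LPS, against 17.9 FPKM in IL-4+LPS. Klf4 was at 1.60 FPKM in IL-4+LPS, beside 1.36 FPKM in control, and Irf4 at 3.75 FPKM, beside 1.36 FPKM. These means are set side by side without a test.

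The metabolic genes of activated macrophages were led by Irg1 (Acod1), which makes itaconate from a TCA cycle intermediate. Irg1, on chromosome 14 at 103047012 to 103056573 of mm10, went from 7.69, 1.92 and 1.04 to 2316, 2878 and 2973 FPKM, the largest log2 fold change of any gene named here (9.50, SE 0.44, adjusted p = 3.05e-08). Ptgs2 (cyclooxygenase 2) rose from 0.595, 0.344 and 0.279 to 289.6, 591 and 662 FPKM (8.44, SE 0.38). Nos2, the inducible nitric oxide synthase that competes with arginase for arginine, went from 0.133, 0.0494 and 0.0631 to 50.5, 260.3 and 256 FPKM (7.13, SE 0.68, adjusted p = 4.98e-06), with replicate 1 far below the others. Sod2, the cystine transporter Slc7a11, Gch1 and Txnrd1 rose by 3.65, 3.08, 2.41 and 1.44. In all, 13 of 25 genes of the list rose and 5 fell (median 0.32), against 15.4% and 58.8% of all rows. The 5 falls were not kept after median scaling.

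Members tied to glycolysis had small or uneven values. The glucose transporter Slc2a1 rose by 0.32 (SE 0.12, adjusted p = 0.038), a call lost in 4 of the 12 fits without 1 sample. Hif1a, the transcription factor that drives glycolytic genes, did not pass (0.32, adjusted p = 0.0576), and without IL-4 replicate 1, LPS replicate 1 or LPS replicate 3 it passed at 0.32 to 0.39, as it did after median scaling (0.71). Hk2 was at 13, 12.6 and 11.9 FPKM before and 8.82, 12.3 and 11.7 FPKM after LPS (-0.19, adjusted p = 0.416). Pfkfb3 was at 5.59, 6.37 and 4.93 FPKM in IL-4 and at 5.47, 29.4 and 24.3 FPKM in IL-4+LPS, so that replicate 1 overlapped the IL-4 samples. It did not pass (1.37, adjusted p = 0.0572), but it passed after median scaling (1.74), without LPS replicate 1 (adjusted p = 0.0216) and without IL-4+LPS replicate 1, where it was 2.07 (adjusted p = 0.00317).

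Of 19 TCA cycle enzymes, 12 fell and 7 did not pass, where 58.8% of all rows fell, and the values ran from -0.68 to 0.12. The median, -0.42, was equal to that of all rows, and after median scaling 4 rose, 2 fell and the median was -0.01. The 2 that also fell after scaling were Sdhb (182, 173 and 179 to 114, 109 and 108 FPKM, -0.68, SE 0.05) and Fh1 (-0.63, SE 0.07), a succinate dehydrogenase subunit and fumarase. Of 18 lysosomal genes 15 fell, with a median of -0.59. After scaling 6 of the 18 fell and 1 rose, beside 34.0% and 26.3% of all rows, so the falls were then near the share among all rows. The acid lipase Lipa fell by 0.89 (SE 0.11) from 938, 1057 and 1008 to 635, 463 and 527 FPKM, and the proton pump subunit Atp6v0d2, also an IL-4-induced gene, by 1.24 (SE 0.27). Of 15 genes of cholesterol efflux and synthesis, 2 rose and 5 fell, where 15.4% of all rows rose and 58.8% fell. After scaling 7 of these genes rose and 2 fell. The exporter Abcg1 fell by 1.78 (SE 0.17) from 106, 96.5 and 98.7 to 38.5, 23.9 and 25.1 FPKM and the desaturase Scd2 by 2.85 (SE 0.32), under both scalings, whereas Ch25h, which makes 25-hydroxycholesterol, rose by 3.46 (SE 0.30) to 5.11, 14.9 and 14.3 FPKM.

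**Figure D4:**
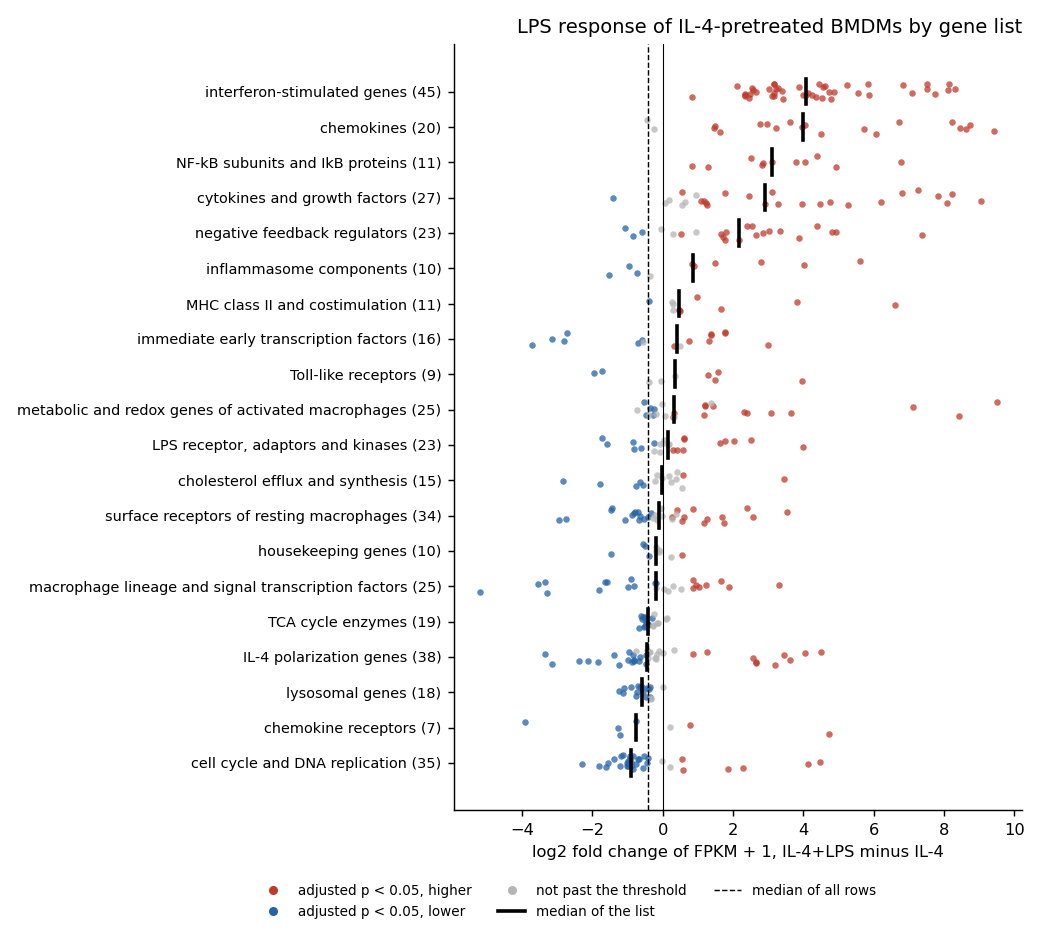
Log2 fold change of FPKM + 1, IL-4+LPS minus IL-4, of each gene of 20 lists, with the number of genes tested in brackets. Red points rose and blue points fell at an adjusted p under 0.05, grey points did not pass, black bars mark each list's median and the dashed line the median of all rows (-0.42). The interferon-stimulated, chemokine and NF-kB lists lie to the right with medians of 4.07, 4.0 and 3.10, and the cell cycle list has the lowest median (-0.89).

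The plot of gene lists also shows lists with members far apart on both sides of 0, of which the transcription factors are the clearest. Of 25 macrophage lineage and signal transcription factors, 8 rose and 12 fell (median -0.19), where 15.4% of all rows rose and 58.8% fell. After median scaling 14 rose and 10 fell, beside 26.3% and 34.0% of all rows. Cebpa, a factor of myeloid differentiation, fell by 3.56 on the log2 scale (SE 0.34, adjusted p = 4.61e-06) from 131, 113 and 116 to 16.1, 6.77 and 7.15 FPKM, while its relatives Cebpd and Cebpb rose by 3.30 (SE 0.31) and 1.02 (SE 0.29). The rise of Cebpb did not pass in a per-gene Tukey test. Tfeb, a regulator of lysosomal genes, fell by 3.29, Mef2c by 1.82, Runx1 by 1.64 and the retinoid receptor Rxra by 1.59. Sfpi1 (PU.1), which defines the lineage, rose by 1.23 (SE 0.16) from 224, 268 and 262 to 471, 677 and 643 FPKM, and Ets2, Irf8 and Maf rose by 1.67, 1.88 and 0.85.

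Immediate early transcription factors, which respond to signals before new protein is made, had 8 rises and 6 falls among 16 tested at this time point. Among all rows, 15.4% rose and 58.8% fell. Jun fell from 70.2, 81.9 and 84.0 to 6.58, 4.60 and 4.05 FPKM (fell by 3.73, SE 0.14, adjusted p = 6.82e-09), Fos by 2.72 (SE 0.43) and Myc by 2.80 (SE 0.17). The other AP-1 members Junb and Jund rose by 1.77 (SE 0.22) and 1.36 (SE 0.09), and the small Maf protein Maff by 2.99 (SE 0.21). These 6 genes kept their calls after median scaling. Ier2 did not pass (0.48), and without IL-4+LPS replicate 1 its log2 fold change was 0.97 (adjusted p = 0.0118).

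Receptors on the cell surface changed in both directions. Of 7 chemokine receptors tested, 2 rose and 4 fell, where 15.4% of all rows rose and 58.8% fell. Cxcr4, the receptor of Cxcl12, went from 32.4, 23.1 and 19.3 FPKM to 0.781, 0.937 and 0.366 FPKM (fell by 3.92, SE 0.20, adjusted p = 4.97e-08). The atypical receptor Ccrl2 rose from 3.03, 2.65 and 2.81 to 84.3, 111 and 109.9 FPKM (4.74, SE 0.14). Of 34 surface receptors of resting macrophages, 12 rose and 14 fell. After median scaling 16 rose and 9 fell, beside 26.3% and 34.0% of all rows. The IL-6 receptor Il6ra fell by 2.96 (SE 0.17) from 14.2, 12.7 and 11.7 to 1.18, 0.816 and 0.403 FPKM, and the nucleotide receptors P2ry6 and P2rx7 by 2.76 and 1.43. The integrin chains Itgal and Itga4, the IL-10 receptor Il10ra and the scavenger receptor Msr1 rose by 3.53, 2.40, 1.68 and 1.16.

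Genes of antigen presentation and T cell costimulation mostly rose. Of 11 listed, 7 rose and 1 fell (median 0.46), against 15.4% and 58.8% of all rows. After median scaling 10 rose, beside 26.3% of all rows. Cd40, the receptor for the T cell ligand CD154, went from 7.72, 8.50 and 9.95 to 594, 1199 and 1188 FPKM (6.61, SE 0.28, adjusted p = 1.75e-08), and Cd83 rose by 3.83 (SE 0.14) to 312, 239 and 244 FPKM. Cd86 and Cd80 rose by 1.65 and 0.98 from low levels. The class II genes moved less. H2-Eb1 rose by 0.50 (SE 0.15), which did not pass in a per-gene Tukey test, and Ciita, the class II transactivator, by 0.46 (SE 0.12), while H2-DMa, which loads peptides, fell by 0.38 (SE 0.15, adjusted p = 0.0449), a call lost in 8 of the 12 fits without 1 sample and after median scaling.

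Of 35 genes of the cell cycle and DNA replication, 27 fell and 6 rose, with a median of -0.89, where 58.8% of all rows fell and 15.4% rose. After median scaling 21 fell and 7 rose, where 34.0% of all rows fell and 26.3% rose. Ccnd1 (cyclin D1) fell by 2.29 (SE 0.26) from 25.9, 37.8 and 39.8 to 7.31, 5.56 and 5.75 FPKM. The cell cycle transcription factors E2f1 and E2f2 fell by 1.40 and 1.81, and the helicase subunit Mcm2 by 1.57. The 2 largest rises stood apart. Ccnd2 (cyclin D2) went from 0.316, 0.210 and 0.0601 to 14.3, 32.8 and 35.3 FPKM (4.48, SE 0.33, adjusted p = 7.63e-07), and Cdkn1a (p21), an inhibitor of cyclin-dependent kinases, from 105, 134 and 124 to 1642, 2342 and 2476 FPKM (4.13, SE 0.19, adjusted p = 2.26e-08). Cdk6, Mki67, Ccne1 and Ccnd3 also rose, by 1.85, 2.28, 0.55 and 0.58. Of 10 housekeeping genes, Actb rose by 0.55 and 4 fell, and after median scaling 5 rose and 1 fell. The rise of Actb did not pass in a per-gene Tukey test. Polr2a, the catalytic subunit of RNA polymerase II, fell by 1.47 (SE 0.09), from 44.4, 42.8 and 36.8 to 15.6, 14.1 and 13.1 FPKM.

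Among the largest decreases of genes of at least 10 FPKM, chosen by their values and given as a description, were those of Cd300lb, Arhgap25, Lhfpl2, Lbh, Tsc22d3, Tmem86a, Arl4c, Sesn1, Cnr2, Cxcr4 and Arl11. Cd300lb, an activating receptor of myeloid cells, went from 214, 227 and 227 to 24.7, 3.73 and 3.23 FPKM (-4.80, SE 0.62), and Arhgap25, which inactivates Rac in phagocytes, from 207, 204 and 204 to 21.1, 3.86 and 3.75 FPKM (-4.69, SE 0.51). In both genes, IL-4+LPS replicate 1 kept a higher level than the other 2 IL-4+LPS samples. Tsc22d3 (GILZ), a glucocorticoid-induced inhibitor of inflammation, went from 49.2, 45.5 and 47.3 to 3.53, 1.37 and 1.51 FPKM (-4.01, SE 0.19), and the cannabinoid receptor Cnr2 from 17.4, 20.3 and 18.9 to 0.390, 0.305 and 0.207 FPKM (-3.93, SE 0.10). Measured in FPKM instead of fold, the largest losses were those of Psap, Ftl1, Lgals3, Ctsd and Gpnmb, which encode abundant lysosomal proteins, a ferritin chain and a galectin. Psap went from 9019, 10825 and 10266 to 7315, 6740.2 and 6979 FPKM (-0.51, SE 0.08), and median scaling removed the calls of all 5. The level of Ftl1 is uncertain, because 78.9% of its 50-base words also occur elsewhere.

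Whether the LPS response after IL-4 differed from that without IL-4 was tested with an interaction term, the log2 fold change of IL-4+LPS over IL-4 minus that of LPS over control. These contrasts share no samples. The interaction was positive for 459 rows (4.26%) and negative for 487 (4.52%). Among them, 95 rows rose in both and more after IL-4, 111 rose in both and less after IL-4, 112 fell in both and more after IL-4, and 201 fell in both and less after IL-4. Opposite directions, each past the threshold, were found for 40 rows that rose after IL-4 and fell without it and for 55 rows that did the reverse. In the LPS response without IL-4, 1823 of the same rows rose (16.9%) and 6228 fell (57.8%). The numbers of interactions varied with the samples included, and they were between 275 and 554 positive and between 314 and 629 negative when each sample was left out in turn, with the lowest counts without LPS replicate 3 and, for the negative ones, also without IL-4 replicate 3.

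Irf8, a transcription factor of monocyte and dendritic cell development, moved in opposite directions with and without IL-4. It was at 54.3, 43.1 and 44.9 FPKM in IL-4 and 132, 205 and 200.4 FPKM in IL-4+LPS, and at 86.4, 76.6 and 75.7 FPKM in control and 33.4, 31.3 and 31.2 FPKM in LPS. It rose by 1.88 after IL-4 and fell by 1.29 without it (interaction 3.16, SE 0.22, adjusted p = 2.47e-05). The efferocytosis receptor Mertk, the transactivator Ciita, the transcription factor Maf, cyclin D3 (Ccnd3) and the cytokine Osm likewise rose after IL-4 and fell without it, with interactions of 2.19, 1.71, 1.09, 1.10 and 1.71. The rise of Mertk did not pass in a per-gene Tukey test. The IL-4 and IL-4+LPS samples overlapped for Osm, whose rise was 0.56 with all samples, 0.84 without IL-4+LPS replicate 1, and lost in 4 of the 12 fits without 1 sample. Ggta1, which makes the alpha-gal sugar epitope, did the reverse and fell by 1.92 after IL-4 but rose by 0.67 without it (interaction -2.59, SE 0.16, adjusted p = 1.40e-05).

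Several inflammatory genes had a larger fold change with LPS after IL-4. The interaction compares fold changes and not the levels reached after LPS, and a lower start makes a fold change larger. Ccl17 did not pass with LPS alone, at a mean of 0.317 FPKM in LPS, and its interaction was 3.86 (SE 0.64, adjusted p = 0.004). Il12a rose by 2.31 without IL-4 and by 5.28 after it (interaction 2.96, SE 0.43, adjusted p = 0.00196), and Il6, Cxcl2, Cd83, Nfkbiz and Tnf had interactions of 2.23, 2.19, 2.25, 1.91 and 1.45. With a pseudocount of 0.1 the interactions of Ccl17 and Il6 did not pass. For Nfkbiz the means were 7.25 FPKM in control and 0.638 FPKM in IL-4 before LPS, and 236 and 179.7 FPKM after it, so the larger fold change stood beside a lower start. For Cd83 the means after LPS were 265 FPKM in IL-4+LPS and 91.9 FPKM in LPS. The serpin Serpina3g and the apolipoprotein L genes Apol7a and Gm8221 had interactions of 2.83, 3.36 and 3.79. The level of Gm8221 is uncertain, because 45.1% of its 50-base words also occur in Apol7c or other genes.

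**Figure D5:**
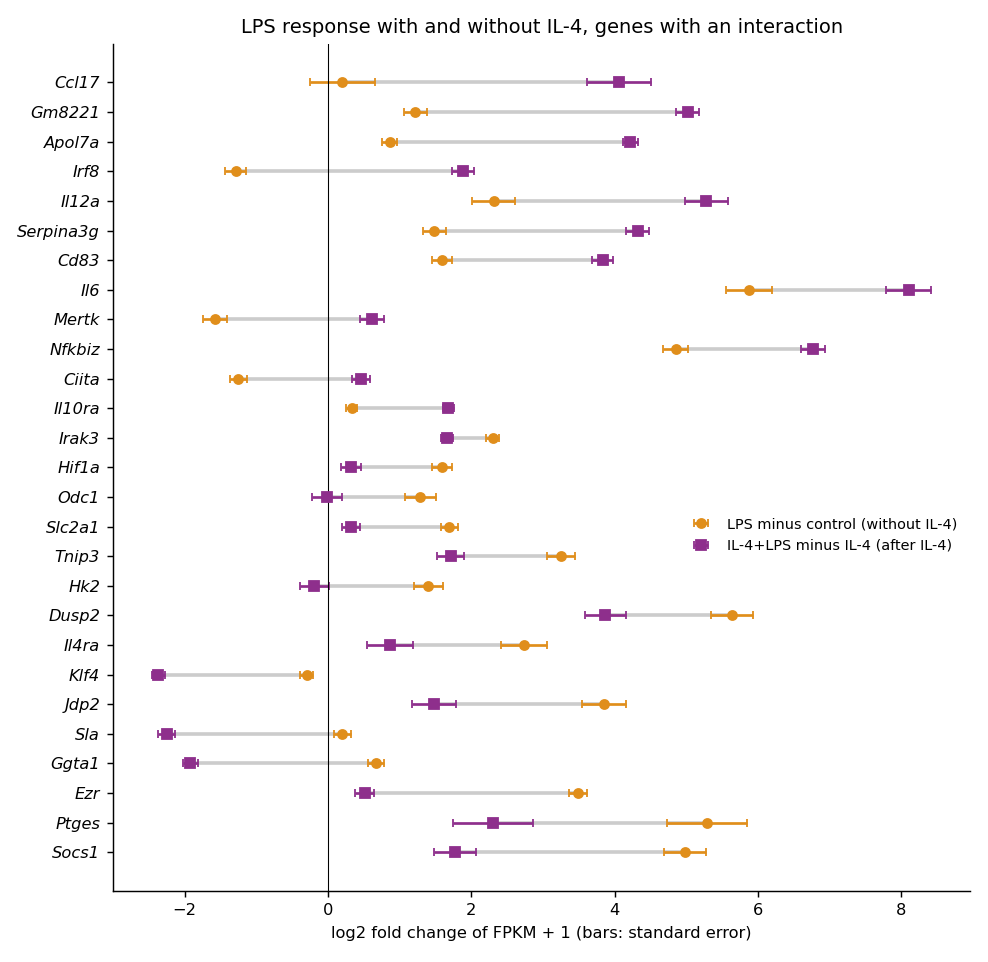
Log2 fold change of FPKM + 1 with LPS in cells without IL-4 (LPS minus control, orange circles) and after IL-4 (IL-4+LPS minus IL-4, purple squares) for 27 genes ordered by their difference, with bars for the standard error (n = 3 per group). Irf8, Mertk and Ciita lie on opposite sides of 0, Ccl17 lies at 4.06 after IL-4 and 0.20 without it, and Socs1, Ptges and Ezr show the largest gaps in the other direction.

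Smaller fold changes with LPS after IL-4 were found for some feedback inhibitors and glycolytic genes. Socs1, an inhibitor of JAK signalling, had means of 0.829 FPKM in control and 31.5 FPKM in IL-4 before LPS, and rose by 4.98 without and 1.77 with IL-4 (interaction -3.21, SE 0.41, adjusted p = 0.00103). Irak3 and Tnip3, inhibitors of Toll-like receptor signalling, had interactions of -0.64 and -1.54. Of the glycolytic genes, Slc2a1, Hif1a, Hk2 and Pfkl rose by 1.69, 1.59, 1.40 and 1.10 with LPS alone, and their interactions were -1.37, -1.28, -1.59 and -0.82 (adjusted p = 0.00107, 0.00254, 0.00647 and 0.00719). The membrane linker Ezr rose by 3.49 without and 0.51 with IL-4, and the AP-1 repressor Jdp2 by 3.85 and 1.48. The adaptor Sla, which dampens antigen receptor signalling, did not pass with LPS alone (0.20) and fell by 2.25 after IL-4 (interaction -2.46). Ptges, the prostaglandin E synthase, rose by 5.29 without and 2.30 with IL-4 (interaction -2.99, adjusted p = 0.0427), a call lost in 9 of the 12 fits without 1 sample.

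By list, beside 4.26% positive and 4.52% negative interactions among all rows, 7 of 27 cytokines, 4 of 20 chemokines, 7 of 45 interferon-stimulated genes and 4 of 11 genes of antigen presentation had positive interactions and none of these lists had a negative one. Of 34 surface receptors 6 were positive and 4 negative, and of 25 lineage and signal transcription factors 4 were positive and 4 negative. Of 38 IL-4 polarization genes 8 were negative and 2 positive, of 23 feedback regulators 4 were negative and 1 positive, and of 25 metabolic genes 7 were negative and none positive. Some genes stand in more than 1 list. A gene at a low level in control, as Klf4 and Irf4 were, can fall little with LPS alone. How much this adds to the negative counts was not tested. The polarization factors Klf4 and Irf4 had negative interactions, at -2.07 (SE 0.13, adjusted p = 1.92e-05) and -1.07 (SE 0.13, adjusted p = 7.13e-04), although that of Irf4 was 0.38 with a pseudocount of 0.1. Of the interferon-stimulated genes the median log2 fold change was 3.38 without and 4.07 after IL-4, and of the metabolic genes 1.59 and 0.32.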

How the data were processed

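Poly-A RNA libraries of 12 samples were read from 1 FPKM table each. Per the labels and the study's methods, the authors aligned reads with TopHat2 2.0.7 and made the deposited FPKM values with Cufflinks 2.0.2 on mm10 (versions from the submitters' processing notes). Raw counts were not used, so depth is known only from the steps of low FPKM values, and intervals from counting error were not computed. The library kit does not mark strand, so overlapping antisense genes cannot be told apart. Samples were grouped by their labels. The study describes 3 individual animals from 2 independent experiments, but the labels tie no sample to an animal or an experiment, so p-values measure the spread between these samples.

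Rows were joined on gene identifier, locus and transcription start, and kept with at least 1 FPKM in any of the 6 samples. Values were transformed to log2(FPKM + 1) and fitted with limma 3.58.1 (R 4.3.3) over all 12 samples, with an intensity trend and Benjamini-Hochberg adjustment over all 10770 rows; every adjusted p in the text is limma's, and the threshold was 0.05. The fit was tested on simulated data. Python 3.11.15 and matplotlib 3.10.9 made tables and figures. Shared 50-base words were counted in a transcript annotation of the same genome, and promoter windows came from RefSeq (GRCm38.p6).

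Named genes were the 12 largest changes in each direction with at least 10 FPKM in the higher group and 1 sign in all 3 same-numbered differences (short RNAs left out), members of the gene lists, the 6 largest interactions in each direction, and the 5 largest gains and losses in FPKM. Some of these genes are not reported here. Members and lists were chosen with earlier results of these data known. Other filters, pseudocounts, scalings and tests, a replicate block and the omission of each sample were tried as alternatives.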

Additional observations from a re-analysis of the deposited data

Results flagged for a closer look

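The results below differed between the LPS response after IL-4 and the response without it, by the interaction term of the limma fit. The difference was positive for 459 rows and negative for 487.

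Among genes of NF-kB signalling and inflammation, Tlr2 and Cd14 had interactions of 1.05 and 0.95 on the log2 scale, and Nfkbiz, Relb and Nlrp3 had 1.91, 1.13 and 1.22. Those of Tnf, Il6, Il12a and Osm were 1.45, 2.23, 2.96 and 1.71, and that of Il15 was 1.18. The chemokines Cxcl2, Ccl17 and Ccl24 had 2.19, 3.86 and 1.92. The interferon-stimulated genes Ifit1 and Oasl1 had 1.35 and 0.98. Negative values were found for Ticam1 (-0.70) and Pycard (-0.81). All these interactions compare fold changes and not the levels after LPS. From a lower start, a gene can have a larger fold change and still a lower level after LPS. The study lists Tlr2, Cd14 and Nlrp3 among genes whose LPS response was attenuated by IL-4 pretreatment. It also reports that IL-4 by itself repressed these genes. How the measures relate was not tested.

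Among receptors and genes of antigen presentation, Cd80, Cd83, Cd86 and Ciita had 0.95, 2.25, 0.82 and 1.71. Il10ra, Itga4, Itgal, Mertk and P2rx7 had 1.35, 1.39, 1.00, 2.19 and 0.79, while P2ry6 had -0.74. Apol7a, Gm8221 and Serpina3g had 3.36, 3.79 and 2.83, and Ccnd3 had 1.10.

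Among transcription factors, the values were 3.16 for Irf8, 1.09 for Maf and 0.94 for Rxra, and on the negative side -0.85 for Ets2, -1.11 for Jun, -1.33 for Myc and -1.21 for Runx1. Jdp2 had -2.37. The IL-4 polarization genes Irf4, Klf4, Pparg, Il4ra, Pdcd1lg2 and Tmem26 had -1.07, -2.07, -1.44, -1.86, -0.96 and -1.36.

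Among feedback regulators and metabolic genes, Socs1, Dusp2, Irak3 and Tnip3 had -3.21, -1.78, -0.64 and -1.54, and Slc2a1, Hif1a, Hk2, Pfkl and Sod2 had -1.37, -1.28, -1.59, -0.82 and -0.72. Ptges had -2.99. Ezr, Ggta1, Sla and Lbh had -2.97, -2.59, -2.46 and -1.48.

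Some of these calls lay close to the threshold. In the 12 fits without 1 sample, the call was lost 11 times for Ccl24, 11 for Pparg, 10 for Cd14, 10 for Cd86, 10 for Ifit1, 10 for P2ry6, 9 for Ptges, 9 for Il15, 9 for P2rx7, 8 for Il4ra, 8 for Sod2, 8 for Oasl1, 6 for Dusp2 and 4 for Cd80. Their adjusted p with all samples was between 0.0223 and 0.0497, and the values kept their sign in these fits, between 1.58 and 2.38 for Ccl24, 0.83 and 1.15 for Cd14 and 0.65 and 0.94 for P2rx7. With a pseudocount of 0.1, the interactions of Ccl17, Ccl24, Ifit1, Il6, Lbh, Pdcd1lg2, Pparg, Ptges and Sod2 did not pass. After median scaling, those of Cd86, Ifit1, Oasl1, Pdcd1lg2 and Sod2 did not pass.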

How the results depend on the processing

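The 1654 rises and 6333 falls became 2836 and 3664 after median scaling, 4121 falls after quantile normalization, and 844 and 1692 with a 2-fold minimum. Without 1 sample they ranged from 1522 to 1700 and from 5842 to 6418. The 459 positive and 487 negative interactions became 140 and 146 with a 2-fold minimum, 1323 and 1214 at an unadjusted p, and 1396 and 1363 with replicates 2 and 3 only, an alternative chosen after seeing the data. Without 1 sample they ranged from 275 to 554 and from 314 to 629, and the positive count was 298 without control replicate 2, 289 without control replicate 3, 284 without IL-4 replicate 3 and 275 without LPS replicate 3. The negative count was 314 without IL-4 replicate 3 and 314 without LPS replicate 3. The cause of these shifts was not tested.

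Of the 198 named genes, 10 changed sign after median scaling: Chi3l3 to 0.06, Dusp1 to 0.35, Fn1 to 0.28, H2-DMa to 0.04, Hk2 to 0.20, Lgals3 to 0.06, Mmp12 to 0.02, Retnla to 0.20, Tlr8 to 0.03 and Tlr9 to 0.25. After quantile normalization, Cxcl14 was at 0.09, Dusp1 at 0.17, Fn1 at 0.08, Ftl1 at 0.01, Hk2 at 0.12, Itgax at -0.09, Lgals3 at 0.09, Psap at 0.00 and Tlr9 at 0.47. Without 1 sample, Cxcl14 ranged from -0.48 to 0.03, Dusp1 from -0.38 to 0.43, Itgax from -0.06 to 0.09 and Tlr9 from -0.52 to 0.29. With replicates 2 and 3 only, Dusp1 was at 0.38 and Itgax at -0.00. With a pseudocount of 0.1, the interaction of Irf4 was 0.38. In the per-gene Tukey test, Actb, Arg1, Cebpb, Dusp4, H2-DMa, H2-Eb1, Il4ra, Mertk, Osm, Pfkl and Slc2a1 did not pass. Of the 40 counts of rises and falls in the 20 gene lists, 12 moved by more than 1.5 times after median scaling, 20 with a 2-fold minimum, 5 with replicates 2 and 3 only, 4 in the per-gene Tukey test, 2 without a filter on low values and at most 1 without any single sample.

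With a replicate block, 1891 rows rose and 7040 fell, and 1071 interactions were positive and 1069 negative. Of the 40 list counts, 3 moved by more than 1.5 times. Of the 198 named genes, 6 gained a call in the main comparison and it changed no other call, nor any of the 59 interactions. The deviations of same-numbered IL-4 and IL-4+LPS samples from their group means correlated at 0.176, 0.11 and 0.076, and IL-4+LPS replicate 3 did not correlate best with its own number. Those of LPS and IL-4+LPS samples correlated at 0.42, 0.204 and 0.13, and those of control and IL-4 samples at 0.185, 0.146 and 0.014. The labels give no shared animal, and not every pair was over 0.1, so the samples were not treated as paired. The alternative on quantification status was not run, because the tables hold no such column. Depth limits what can be said of genes near 1 FPKM.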

Other observations

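Rows of short RNAs, whose names begin with Mir, Snor, Scarna or Rnu, were kept in the counts but not among the named genes. Of 159 such rows tested, 6 rose and 12 fell after LPS in IL-4-pretreated cells, where 15.4% of all rows rose and 58.8% fell.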
